A study of Mus musculus with 17 samples.

Results

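Iron handling was followed in sorted cardiac fibroblasts (CFs) through 10 genes: the *Steap1*, *Steap2*, *Steap3* and *Steap4* family, *Tfrc*, *Slc40a1*, *Fth1*, *Ftl1*, *Cp* and *Lcn2*. All 10 were found among the 31053 genes listed and all 10 passed the filter of at least 10 counts in at least 3 libraries, as did 14030 genes in all. *Steap1* was selected on its measured fall from 3 to 5 days post infarction (dpi) to 6 dpi, so that its values are given as a description. The other 9 genes were taken for their family or their role in iron handling. Sequencing counts were available for 17 bulk libraries. Days 1, 2, 4 and 6 had 3 libraries each, 3 dpi had 4 and 5 dpi had 1. Every group held cells of C57BL/6 mice of the genotype Collagen1a1-GFP+, 8 to 10 weeks old and with a myocardial infarction, and by the labels the groups differ by day. Green fluorescent protein under the *Col1a1* promoter marked the CFs, and cells bearing CD31 or CD45 were sorted away, so cells with little activity of that promoter were not sampled. Uninjured hearts were not analysed here. The labels number the libraries of a day as replicates without saying that each came from its own animal, so p-values measure the spread between these libraries.

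Iron circulates bound to transferrin and enters cells through the transferrin receptor, after which ferric iron is reduced in the endosome before transport to the cytosol. STEAP proteins are membrane oxidoreductases, of which several reduce ferric iron and cupric copper. Excess iron is stored in ferritin or leaves through ferroportin and is oxidised again by ceruloplasmin, whereas lipocalin 2 is secreted in inflammation and binds iron-loaded siderophores.

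Total counts per library ran from 8021815 to 22029938, with a median of 14123952, and a floor of 3 counts corresponded to 0.136 to 0.374 CPM, the count scaled to the same total in every library. Summed fibroblast markers took 1.22% to 3.87% of the counts of a library, and *Ptprc*, the gene of CD45, reached at most 3.09 CPM. The 12 macrophage markers summed to 269 and 279 CPM in 3 dpi replicates 3 and 4 and to at most 85.1 CPM elsewhere. Haemoglobin and the other erythroid genes summed to 2687 CPM in 4 dpi replicate 3, 728 CPM in 4 dpi replicate 2 and 506 CPM in 6 dpi replicate 3, and to at most 272 CPM elsewhere. Mitochondrially encoded genes took 1.45% to 1.86% of counts at 1 dpi and 1.35% to 1.7% at 2 dpi. Their share was 0.321% to 0.782% at 3 dpi, 1.22% to 2.04% at 4 dpi and 0.62% at 5 dpi. At 6 dpi it was 0.458%, 0.425% and 1.71% in replicates 1, 2 and 3. This share cannot be told apart from the day in 3 against 2 dpi and in 4 against 3 dpi, where the libraries did not overlap. *Xist* stood at 71.7 to 255 CPM in all libraries of 4 and 6 dpi and at no more than 2.85 CPM at 2, 3 and 5 dpi, while 1 dpi was mixed. The 3 to 5 dpi window holds both patterns. The sex of the animals therefore cannot be told apart from the day in 4 against 3 dpi and is unbalanced in both contrasts of the window and in 6 against 1 dpi, from which most calls below come, whereas 3 against 2 dpi and 6 against 4 dpi compare libraries of 1 pattern. Column names at 3 dpi follow a form of their own, and the sources used here do not say whether that day was prepared apart. In bulk libraries, fewer cells expressing a gene and less RNA per cell cannot be told apart.

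*Steap1* and *Steap2* lie in the same orientation on chromosome 5 of GRCm38, at chr5:5736317-5749326 and chr5:5664829-5694578 on the minus strand, 41.7 kb apart. *Steap4* lies 2211.1 kb beyond *Steap1*, at chr5:7960457-7982213 on the plus strand, and *Steap3* at chr1:120190757-120272705 on the minus strand. Levels are given below in CPM of each library's total, and differences as log2 fold changes ± standard error (SE) from edgeR's quasi-likelihood test over all 17 libraries. A gene was called when its p, adjusted by the Benjamini-Hochberg method over the 14030 genes, was under 0.05.

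*Steap1* encodes a STEAP protein without the reductase domain of its relatives. At 1 dpi the 3 libraries stood at 24.9, 21.4 and 7.87 CPM, and at 2 dpi at 20.4, 16.3 and 8.38 CPM. The level was 30.4, 17.7, 30.6 and 43.7 CPM at 3 dpi, 24.0, 20.8 and 7.56 CPM at 4 dpi and 18.6 CPM in the 5 dpi library. At 6 dpi it was 1.62, 1.93 and 5.6 CPM. Every 6 dpi library lay under every earlier one, and these 6 dpi values rest on 27, 27 and 72 counts. The difference of 3 to 5 dpi over 6 dpi, on which the gene was selected, was 2.77 on the log2 scale, and that of 6 against 4 dpi was -2.57. Without the 3 libraries with the most haemoglobin counts, an alternative chosen after seeing the data, these became 3.60 and -3.75. The earlier contrasts share the libraries of 3 and 4 dpi with the selection, so their values are likewise a description. The gene still enters the counts of those contrasts below, where the main edgeR test did not call it. The log2 fold change was 0.96 for 3 against 2 dpi and -0.60 for 4 against 3 dpi, and in CPM the libraries overlapped in both.

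*Steap2*, a ferric and cupric reductase of endosomes and the Golgi, had a similar course of smaller size. It stood at 19.1, 17.2 and 13.2 CPM at 1 dpi and at 31.8, 20.3 and 17.3 CPM at 2 dpi. Its highest mean was at 3 dpi, with 42.3, 25.7, 22.4 and 30.6 CPM, followed by 29.2, 26.4 and 15.7 CPM at 4 dpi and 19.1 CPM at 5 dpi. The libraries of 6 dpi, at 9.58, 6.28 and 12.3 CPM, were the lowest of the course and overlapped with no other day. Apart from 6 dpi, each day overlapped with the next in the order of the means. *Steap2* was higher at 3 to 5 dpi than at 6 dpi by 1.28 ± 0.31 on the log2 scale (edgeR adjusted p = 0.013). It was called over the whole time course (edgeR adjusted p = 0.027). For 6 against 4 dpi the change was -1.34 ± 0.34, not called by edgeR (adjusted p = 0.063) although called by DESeq2 (adjusted p = 0.013). In edgeR it was called without 3 dpi replicate 2 (adjusted p = 0.031), 4 dpi replicate 3 (adjusted p = 0.025) or 6 dpi replicate 3 (adjusted p = 0.022). The call of 3 to 5 dpi over 6 dpi was lost without 6 dpi replicate 1 (edgeR adjusted p = 0.059) or 6 dpi replicate 2 (edgeR adjusted p = 0.10), and without the 3 dpi libraries (edgeR adjusted p = 0.053).

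Over the 17 libraries the log2 levels of *Steap1* and *Steap2* had a Pearson r of 0.86 and a Spearman rho of 0.85, given as a description of points that share days and preparation. Within a library, the log2 CPM of *Steap1* minus that of *Steap2* lay between -1.04 and 0.51 from 1 to 5 dpi. It was -2.48, -1.65 and -1.12 at 6 dpi, under all earlier libraries. The 6 dpi levels by which *Steap1* was selected enter the r, the rho and this difference. The RefSeq windows from 250 bases before to 50 after a start site (GRCm38.p6) are shown for this pair, chosen by the r above. Letters of the searched motifs are in capitals. *Steap1* has 1 such window, at chr5:5749268-5749567 on the minus strand, and it held none of the 6 motifs. *Steap2* has 3, of which the one at chr5:5694519-5694818 on the minus strand is shown, with 1 antioxidant response element core from 25 to 17 bases before the start site. The windows not shown held a STAT motif in one, and an NF-kB motif and a hypoxia response element core in the other.
Steap1: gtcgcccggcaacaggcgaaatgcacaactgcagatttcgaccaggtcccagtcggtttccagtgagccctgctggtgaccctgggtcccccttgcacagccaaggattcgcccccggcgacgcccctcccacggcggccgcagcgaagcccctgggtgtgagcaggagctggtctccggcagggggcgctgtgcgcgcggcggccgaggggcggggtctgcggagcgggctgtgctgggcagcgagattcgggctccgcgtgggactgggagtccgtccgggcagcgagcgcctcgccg
Steap2: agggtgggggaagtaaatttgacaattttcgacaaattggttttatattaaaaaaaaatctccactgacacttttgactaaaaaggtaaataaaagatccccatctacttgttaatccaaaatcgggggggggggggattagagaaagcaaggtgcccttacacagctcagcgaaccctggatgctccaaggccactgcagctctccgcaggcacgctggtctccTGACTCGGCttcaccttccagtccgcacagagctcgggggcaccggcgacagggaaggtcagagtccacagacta
The motifs, searched on both strands, were the antioxidant response element core TGACNNNGC, in 12.4% of the 32544 RefSeq windows, AP-1 TGANTCA, in 7.79%, STAT TTCNNNGAA, in 8.33%, C/EBP TTGCNNAA, in 10.8%, the hypoxia response element core ACGTG, in 19.7%, and the NF-kB motif, in 4.53%. The AP-1 and antioxidant motifs can overlap. A match describes letters only.

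*Steap3*, the endosomal ferrireductase best known from erythroid precursors, did not share this course. It stood at 13.6, 34.5 and 34.2 CPM at 1 dpi, 27.2, 26.9 and 39.4 CPM at 2 dpi and 17.8, 27.4, 26.1 and 21.5 CPM at 3 dpi. The later levels were 22.1, 22.9 and 28.5 CPM at 4 dpi, 21.9 CPM at 5 dpi and, at 6 dpi, 38.5, 29.0 and 34.5 CPM. On the normalized scale every 6 dpi library lay above every library of 3, 4 and 5 dpi, and the mean was highest at 6 dpi. The difference of 3 to 5 dpi from 6 dpi was -0.66 ± 0.26 on the log2 scale and was not called (edgeR adjusted p = 0.10). Without 3 dpi replicate 2 it was -0.73 and called (edgeR adjusted p = 0.036). Its log2 level had a Pearson r of -0.73 with that of *Steap1* over the 17 libraries, which include the 6 dpi levels by which *Steap1* was selected.

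*Steap4*, a metalloreductase of adipose and inflamed tissue, stood at 67.2, 68.9 and 60.3 CPM at 1 dpi and 58.8, 125 and 84.7 CPM at 2 dpi. It was 153, 83.8, 133 and 88.1 CPM at 3 dpi, 72.8, 53.6 and 37.7 CPM at 4 dpi, 59.2 CPM at 5 dpi and 35.3, 49.7 and 71.3 CPM at 6 dpi. The mean was highest at 3 dpi. In CPM every 4 dpi library lay under every 3 dpi library, whereas on the normalized log2 scale the 2 days overlapped. The log2 fold change of 4 against 3 dpi was -0.91 ± 0.32 and was not called (edgeR adjusted p = 0.14). The main edgeR test called *Steap4* in no contrast, and over the whole time course it gave an adjusted p of 0.12. With every gene with at least 1 count, 4 against 3 dpi was -0.94 and called (edgeR adjusted p = 0.026). DESeq2 called *Steap4* over the whole time course.

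**Figure D1:**
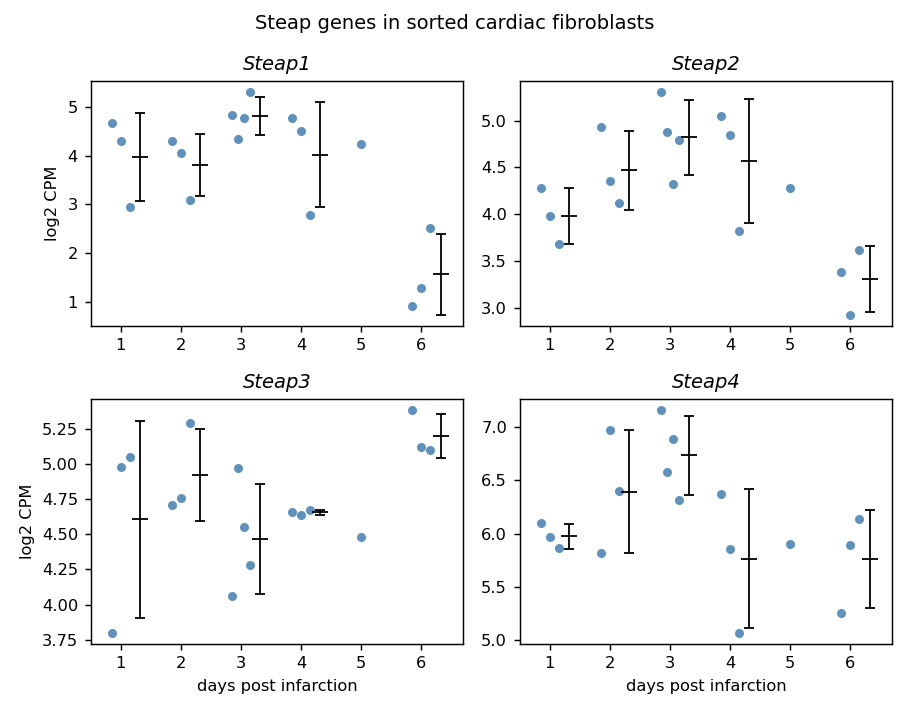
Levels of the 4 *Steap* genes in log2 CPM on the vertical axis against days post infarction, with 1 point per library and the mean ± SD of a day to the right of its points (no SD for the single 5 dpi library). The 6 dpi points lie lowest for *Steap1* and *Steap2* and at the top of the range for *Steap3*, while those of *Steap4* overlap with the other days.

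*Tfrc*, the transferrin receptor (chr16:32608920-32632794, plus strand), was counted sparsely, with 0 to 160 counts and a median of 33 counts per library. It stood at 6.98, 7.26 and 3.45 CPM at 1 dpi, 5.98, 3.82 and 0.466 CPM at 2 dpi and 0.857, 1.06, 1.92 and 4.13 CPM at 3 dpi. At 4 dpi it was 2.06, 3.63 and 1.80 CPM, at 5 dpi 1.96 CPM and at 6 dpi 0.299, 0 and 2.57 CPM. All 6 dpi libraries lay under all 1 dpi libraries, with a log2 fold change of -2.56 ± 0.98 that was not called by edgeR (adjusted p = 0.094) and was called by DESeq2 (adjusted p = 0.034). The change depended on 6 dpi replicate 3: without it 6 against 1 dpi gave -4.95 (edgeR adjusted p = 0.0078), 6 against 4 dpi -3.85 (edgeR adjusted p = 0.040) and 3 to 5 dpi over 6 dpi 3.54 (edgeR adjusted p = 0.032). These larger values rest on 6 dpi libraries of 5 and 0 counts.

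*Slc40a1* encodes ferroportin, the cellular iron exporter (chr1:45908068-45926523, minus strand), and was likewise low, with 3 to 93 counts per library. It stood at 5.24, 2.95 and 4.72 CPM at 1 dpi, 3.30, 1.59 and 3.61 CPM at 2 dpi and 1.90, 1.70, 3.84 and 0.591 CPM at 3 dpi. At 4 dpi it was 1.37, 1.76 and 11 CPM, at 5 dpi 0.309 CPM and at 6 dpi 5.33, 4.71 and 6.38 CPM. Apart from the 11 CPM of 4 dpi replicate 3, every library of 3 to 5 dpi lay under the 3 of 6 dpi. *Slc40a1* was lower at 3 to 5 dpi than at 6 dpi by a log2 fold change of -2.08 ± 0.62 (edgeR adjusted p = 0.035). The 5 dpi library, at the floor with 3 counts, carried much of this value, and without it the change was -1.02 and not called (edgeR adjusted p = 0.20). The call was also lost without 4 dpi replicate 2 (edgeR adjusted p = 0.052), 6 dpi replicate 1 (edgeR adjusted p = 0.097) or 6 dpi replicate 2 (edgeR adjusted p = 0.11), and without the 3 dpi libraries (edgeR adjusted p = 0.071). Against 1 and 2 dpi the change at 3 to 5 dpi was -1.29 ± 0.55 (edgeR adjusted p = 0.17). It ran from -1.78 to -0.22 over the 25 alternatives run, of which 1 was called. That call came without 4 dpi replicate 3, at -1.75 (edgeR adjusted p = 0.025). That library had the highest erythroid sum, 2687 CPM, while the 6 dpi libraries had sums of 55.8 to 506 CPM; the part of red cells in the *Slc40a1* counts was not tested. Macrophages also express ferroportin, and the 2 libraries with the most macrophage markers stood at 3.84 and 0.591 CPM of *Slc40a1*. The part of macrophages in these counts was not tested either.

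*Fth1* and *Ftl1* encode the heavy and light chains of ferritin, of which the heavy chain carries the ferroxidase activity. They lie at chr19:9980598-9985098 on the plus strand and chr7:45457944-45459884 on the minus strand. Together they took 0.445% to 1.21% of the counts of a library. *Fth1* stood at 2359, 4243 and 3123 CPM at 1 dpi, 3722, 3689 and 2825 CPM at 2 dpi and 2463, 6637, 2387 and 2287 CPM at 3 dpi. Later it was at 1810, 1557 and 2212 CPM at 4 dpi, 1602 CPM at 5 dpi and, at 6 dpi, 1824, 1678 and 1824 CPM. All libraries of 4 to 6 dpi lay under all those of 1 to 3 dpi, and 3 dpi replicate 2 was far above its day. The log2 fold change was -0.88 ± 0.38 for 4 against 3 dpi (edgeR adjusted p = 0.23), -0.68 ± 0.40 for 6 against 1 dpi (edgeR adjusted p = 0.28) and -0.54 ± 0.29 for 3 to 5 dpi against 1 and 2 dpi (edgeR adjusted p = 0.29), none of them called. Without 3 dpi replicate 2 the last was -0.77 (edgeR adjusted p = 0.0044), and 6 against 1 dpi kept its -0.68 and was called (edgeR adjusted p = 0.042).

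*Ftl1* did not follow *Fth1*. It stood at 5036, 6503 and 5862 CPM at 1 dpi, 5689, 5130 and 7075 CPM at 2 dpi and 2932, 5489, 3490 and 3783 CPM at 3 dpi. At 4 dpi it was 4048, 3668 and 5175 CPM, then 2844 CPM at 5 dpi and 8130, 7481 and 4328 CPM at 6 dpi. Replicates 1 and 2 of 6 dpi were the highest of all libraries, while replicate 3 lay within the range of 4 dpi. *Ftl1* was lower at 3 to 5 dpi than at 6 dpi by a log2 fold change of -1.0 ± 0.29 (edgeR adjusted p = 0.031). The call was lost without 4 dpi replicate 2 (edgeR adjusted p = 0.055), the 5 dpi library (edgeR adjusted p = 0.051), 6 dpi replicate 1 (edgeR adjusted p = 0.16), 6 dpi replicate 2 (edgeR adjusted p = 0.18) or the 2 libraries with macrophage markers (edgeR adjusted p = 0.064). Against 1 and 2 dpi it was -0.64 ± 0.25, not called by edgeR (adjusted p = 0.12) although called by DESeq2 at -0.63 (adjusted p = 0.048). Without 3 dpi replicate 2 that contrast gave -0.75 (edgeR adjusted p = 0.016) and 3 against 2 dpi gave -0.93 (edgeR adjusted p = 0.048). *Ftl1* counts are uncertain because 6 other annotated genes share a run of 60 bases with it. One of them, *Ftl1-ps1*, is in the table and took 32.8% to 44.6% of the counts of both, and its levels had a Pearson r of 0.98 with those of *Ftl1*.

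The ratio of *Fth1* to *Ftl1* counts within a library does not depend on scaling between libraries. It was 0.468, 0.652 and 0.533 at 1 dpi, 0.654, 0.719 and 0.399 at 2 dpi and 0.840, 1.209, 0.684 and 0.605 at 3 dpi. At 4 dpi it was 0.447, 0.424 and 0.427, at 5 dpi 0.564 and at 6 dpi 0.224, 0.224 and 0.421. The 3 dpi libraries had the 2 highest ratios, and 2 of the 6 dpi libraries had the lowest. With *Ftl1-ps1* added to *Ftl1* the 6 dpi ratios were 0.140, 0.135 and 0.252 and those of 3 dpi 0.547, 0.670, 0.455 and 0.397. The ratio was chosen after its values were seen and has no test.

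**Figure D2:**
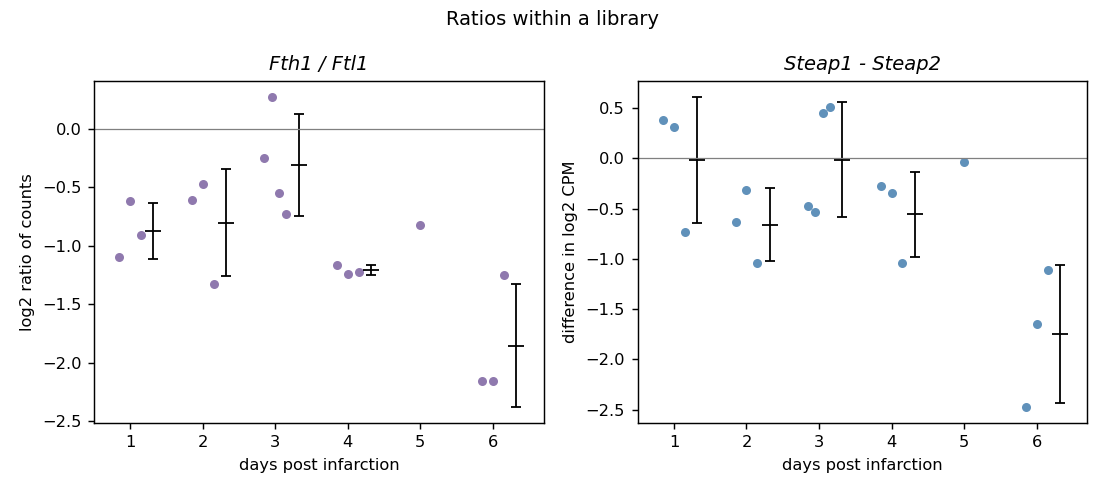
Left, the log2 ratio of *Fth1* to *Ftl1* counts, and right, the difference in log2 CPM between *Steap1* and *Steap2*, each within a library, against days post infarction. Points are libraries and bars the mean ± SD of a day. Replicates 1 and 2 of 6 dpi have the lowest ferritin ratios, and all 6 dpi libraries the lowest *Steap1* minus *Steap2* values.

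The mRNAs of the uptake, export and storage genes carry the iron-responsive element, a hairpin bound by the iron regulatory proteins of *Aco1* and *Ireb2*. It governs translation when it stands before the coding sequence and mRNA stability when it stands after it. A hairpin of this form, with the loop CAGTG and a stem of 5 paired bases, was found in 4 of the 10 genes, against 0.599% of the 55450 annotated genes. These 4 are the uptake, export and storage genes just named as carriers, so the count was known in advance and is no test. The sites are shown because they separate the genes by position, with the loop in capitals and the letters in the sense of the transcript. *Fth1* (chr19:9982732-9982760), *Ftl1* (chr7:45459779-45459807) and *Slc40a1* (chr1:45925465-45925493) each held 1 before the coding sequence.
Fth1: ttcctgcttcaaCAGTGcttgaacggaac
Ftl1: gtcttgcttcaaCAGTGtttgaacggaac
Slc40a1: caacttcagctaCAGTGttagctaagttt
*Tfrc* held 4 after its coding sequence, from chr16:32631219-32631247 to chr16:32631710-32631738.
Tfrc site 1: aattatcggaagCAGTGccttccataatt
Tfrc site 2: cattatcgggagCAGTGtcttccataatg
Tfrc site 3: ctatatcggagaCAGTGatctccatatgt
Tfrc site 4: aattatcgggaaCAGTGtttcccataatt
The counts measure mRNA, so translation from these messages was not measured.

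*Cp*, the ferroxidase ceruloplasmin (chr3:19957054-20009145, plus strand), had high levels on the first days and low ones after. It stood at 151, 162 and 225 CPM at 1 dpi and 157, 244 and 221 CPM at 2 dpi. The levels were 109, 90.6, 103 and 89.9 CPM at 3 dpi, 101, 69.5 and 83.0 CPM at 4 dpi, 51.5 CPM at 5 dpi and 42.3, 36.1 and 115 CPM at 6 dpi. Every library from 3 dpi on lay under every library of 1 and 2 dpi. *Cp* fell by 1.31 ± 0.25 on the log2 scale from 1 and 2 dpi to 3 to 5 dpi (edgeR adjusted p = 0.0017), and this was called under all 26 alternatives run. It was lower at 6 than at 1 dpi (-1.36 ± 0.33, edgeR adjusted p = 0.012). That call was lost without 1 dpi replicate 3 (edgeR adjusted p = 0.056), 6 dpi replicate 1 (edgeR adjusted p = 0.075) or 6 dpi replicate 2 (edgeR adjusted p = 0.073). The step from 2 to 3 dpi was -1.12 on the log2 scale (edgeR adjusted p = 0.049), and the call held in 6 of 17 fits that left out 1 library. It was lost without any 1 or 2 dpi library, without 3 dpi replicates 1, 3 or 4 and without 4 dpi replicates 1 or 2, with the lowest size, -0.97, without 2 dpi replicate 2 (edgeR adjusted p = 0.21). Without 6 dpi replicate 3, the only 6 dpi library above 100 CPM, 6 against 4 dpi gave -0.99 (edgeR adjusted p = 0.038).

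*Lcn2*, lipocalin 2 (chr2:32384633-32388252, minus strand), was highest at 1 dpi. It stood at 102, 120 and 110 CPM at 1 dpi, 39.3, 59.6 and 24.2 CPM at 2 dpi and 16.9, 6.73, 11.4 and 16.5 CPM at 3 dpi. On the later days it was at 45.2, 11.9 and 4.44 CPM (4 dpi), 21.8 CPM (5 dpi) and 3.71, 19.8 and 9.11 CPM (6 dpi). The 1 dpi libraries lay above all others and those of 2 dpi above those of 3 dpi, while the later days overlapped. *Lcn2* fell by 3.12 ± 0.67 on the log2 scale from 1 to 6 dpi (edgeR adjusted p = 0.0052), and this was called under all 25 alternatives run. It fell by 1.84 ± 0.49 from 1 and 2 dpi to 3 to 5 dpi (edgeR adjusted p = 0.022), a call lost without 2 dpi replicate 2 (edgeR adjusted p = 0.058) or without the 3 dpi libraries (edgeR adjusted p = 0.16). From 2 to 3 dpi, within 1 *Xist* pattern, the log2 fold change was -1.74 ± 0.59 and was not called (edgeR adjusted p = 0.11). Neutrophils are another source of lipocalin 2, and their part in the *Lcn2* counts was not tested. Their 11 markers summed to 3.95 to 5.64 CPM at 1 dpi, where *Lcn2* was highest, and to 1.74 to 11.5 CPM on the other days, with 2 to 9 of the 11 at 0 counts, *S100a8* at most at 0.855 CPM and *Ly6g* at most at 1.54 CPM.

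*Cp* and *Lcn2* had a Pearson r of 0.63 and a Spearman rho of 0.67 over the 17 libraries. Their RefSeq windows are shown because both genes were called for 3 to 5 against 1 and 2 dpi and for 6 against 1 dpi, with motif letters in capitals as for the *Steap* pair. The window of *Lcn2* (chr2:32387690-32387989, minus strand) held 1 C/EBP motif, from 216 to 209 bases before the start site. That of *Cp* which begins at the annotated gene start (chr3:19956804-19957103, plus strand) held 1 AP-1 motif, from 177 to 171 bases before it. A second *Cp* window (chr3:19956999-19957298, not shown) held 1 C/EBP motif, from 70 to 63 bases before its start site.
Lcn2: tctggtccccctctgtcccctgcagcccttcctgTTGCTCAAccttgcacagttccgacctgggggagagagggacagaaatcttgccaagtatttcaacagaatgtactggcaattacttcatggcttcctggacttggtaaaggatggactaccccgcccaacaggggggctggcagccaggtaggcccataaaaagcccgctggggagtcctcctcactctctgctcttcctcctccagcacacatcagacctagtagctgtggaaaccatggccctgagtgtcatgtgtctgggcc
Cp: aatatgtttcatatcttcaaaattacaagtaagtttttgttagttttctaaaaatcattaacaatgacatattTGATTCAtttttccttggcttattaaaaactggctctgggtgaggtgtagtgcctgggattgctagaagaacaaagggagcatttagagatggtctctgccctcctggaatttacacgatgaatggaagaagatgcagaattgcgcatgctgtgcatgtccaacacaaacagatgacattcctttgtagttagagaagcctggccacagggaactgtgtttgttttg
Of the 24 tested genes of an acute-phase and NF-kB response list, 9 were lower and 0 higher at 6 than at 1 dpi. Among all tested genes 5.21% were lower and 6.91% higher. The median change of the list was -1.15 on the log2 scale against 0.03 for all genes. From 1 and 2 dpi to 3 to 5 dpi, where both *Cp* and *Lcn2* were lower, 2 of the list were higher and 0 lower. In that contrast 5.25% of all tested genes were higher and 2.24% lower. The median was -0.45 for the list against -0.001 for all genes. The summed level of this list was 8931 to 11055 CPM at 1 dpi and 3864 to 5952 CPM at 6 dpi.

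**Figure D3:**
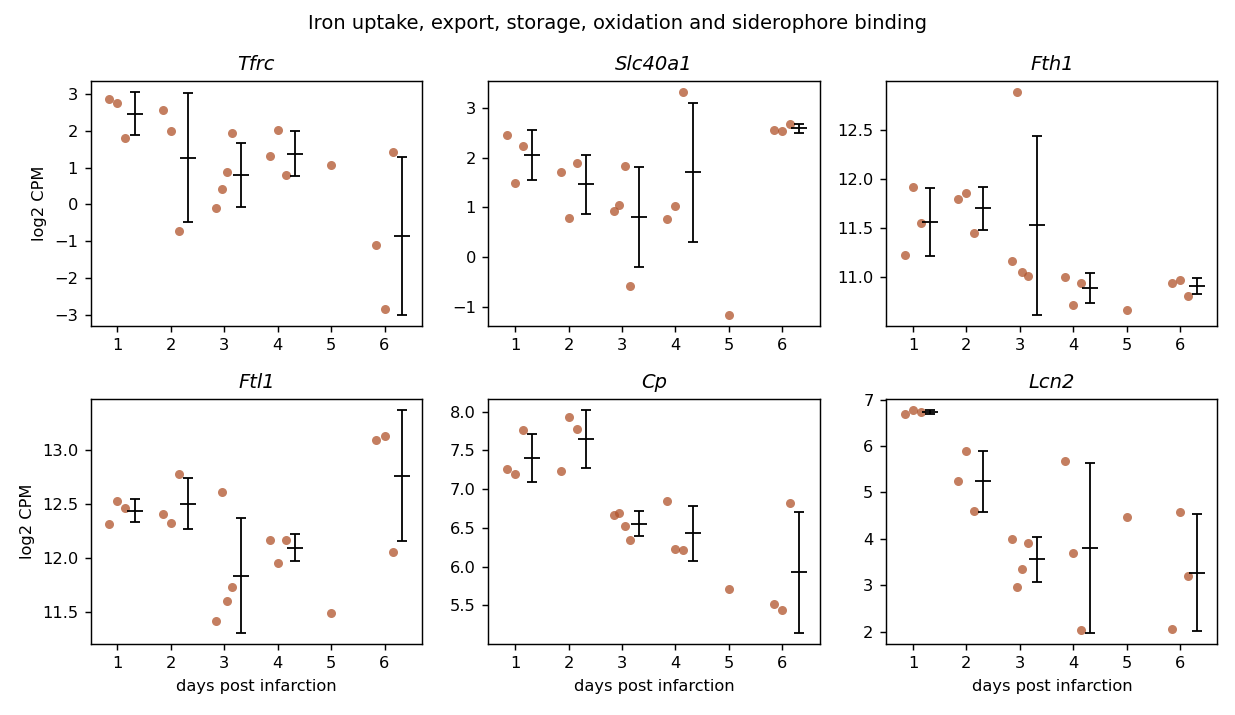
Levels of *Tfrc*, *Slc40a1*, *Fth1*, *Ftl1*, *Cp* and *Lcn2* in log2 CPM on the vertical axis against days post infarction, with 1 point per library and the mean ± SD of a day to the right of its points. *Cp* and *Lcn2* are highest on the first days, *Fth1* of 3 dpi replicate 2 lies at 12.88, and *Tfrc* and *Slc40a1* spread widely.

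Counted over the 10 genes, 2 against 1 dpi called 0 in edgeR, with 1 at an unadjusted p under 0.05 and 0 in DESeq2. In that contrast 0.157% of all tested genes were called higher and 0.0214% lower. For 3 against 2 dpi 1 of 10 was called, *Cp*, against 1.82% higher and 1.12% lower among all genes. For 4 against 3 dpi edgeR called 0 of 10, with 2 at an unadjusted p under 0.05 and 0 in DESeq2, beside 1.63% higher and 1.08% lower. For 6 against 4 dpi edgeR called 0 of the 9 tested, with 2 at an unadjusted p under 0.05, beside 0.235% higher and 0.278% lower. DESeq2 called 1 of the 9 in this contrast, and 759 genes in all. For 6 against 1 dpi 2 of 9 were lower and 0 higher, beside 6.91% higher and 5.21% lower. The window of 3 to 5 dpi against 1 and 2 dpi gave 2 of 10 lower and 0 higher, beside 5.25% higher and 2.24% lower. Against 6 dpi it gave 1 of 9 higher, *Steap2*, and 2 lower, *Slc40a1* and *Ftl1*, beside 5.29% higher and 6.25% lower. Over the whole time course edgeR called 3 of 9, *Steap2*, *Cp* and *Lcn2*, beside 15.0% of all genes. DESeq2 called 6 of 9, adding *Steap4*, *Slc40a1* and *Ftl1*, and 3757 genes in all. How many of all genes had an unadjusted p under 0.05 was not counted. The median log2 fold change of the 10 genes was 0.1 for 2 against 1 dpi, -0.48 for 3 against 2 dpi and 0.02 for 4 against 3 dpi. It was -0.22 for 6 against 4 dpi and -0.67 for 6 against 1 dpi. For the window it was -0.59 against 1 and 2 dpi and 0.29 against 6 dpi. That of all genes lay between -0.03 and 0.04 in these contrasts. The medians of the 10 genes all include *Steap1*. All but that of 2 against 1 dpi use days on which it was selected, which were 3 to 6 dpi. In the 6 against 4 dpi contrast, whose libraries share the *Xist* pattern, the log2 fold change was 0.43 for *Slc40a1* and 0.74 for *Ftl1*, the direction of their contrast with 3 to 5 dpi, and neither was called.

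**Figure D4:**
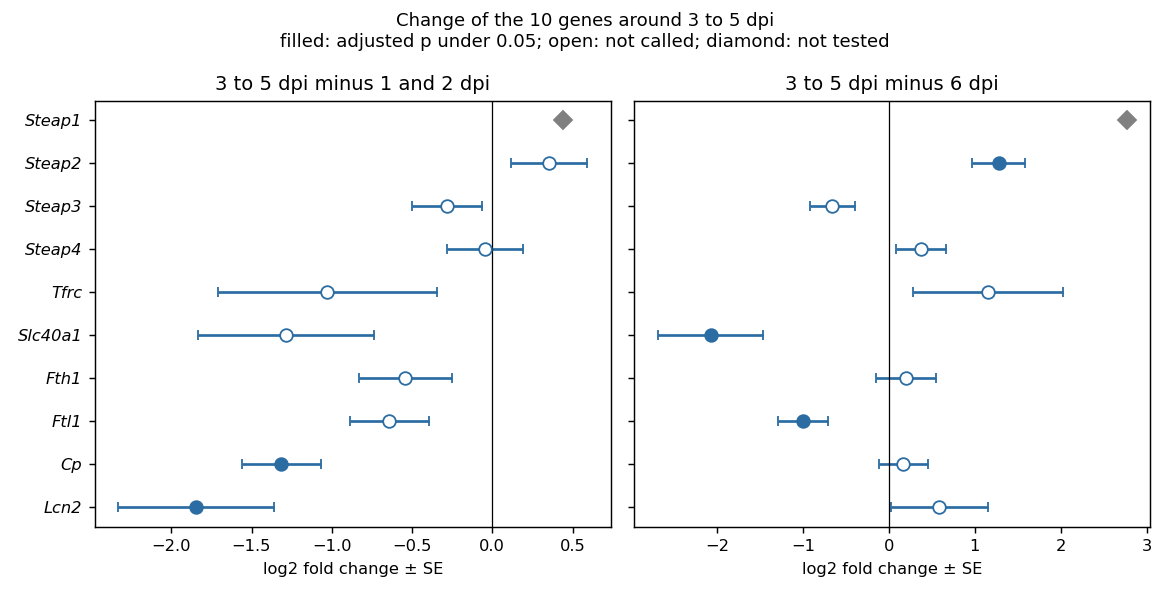
Log2 fold changes ± SE of the 10 genes for 3 to 5 dpi minus 1 and 2 dpi (left) and minus 6 dpi (right). Filled points passed an adjusted p under 0.05 and open points did not. The diamonds for *Steap1*, at 0.44 and 2.77, are drawn as not tested because its values are a description. The left one still enters the count of genes tested and was not called. *Cp* and *Lcn2* are filled on the left, and *Steap2*, *Slc40a1* and *Ftl1* on the right.

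A list of 52 other iron genes, covering uptake, regulation, iron-sulphur and haem synthesis and haem breakdown, had 45 genes tested. In edgeR 0 were called for 2 against 1 dpi, 0 for 3 against 2 dpi and 0 for 6 against 4 dpi. At an unadjusted p under 0.05 there were 2, 9 and 13 of them. DESeq2 called 0, 4 and 3 of them, beside 104, 1033 and 759 genes in all. For 4 against 3 dpi 2 were higher and 1 lower, beside 1.63% and 1.08% of all tested genes. For 6 against 1 dpi 1 was higher and 5 lower, beside 6.91% and 5.21%. In the window of 3 to 5 dpi 5 were higher and 1 lower than at 1 and 2 dpi, beside 5.25% and 2.24%, and 2 were higher and 0 lower than at 6 dpi, beside 5.29% and 6.25%. Over the whole time course 11 of 45 were called, beside 15.0%. The median log2 fold change of the list lay between -0.13 and 0.12 in the 7 contrasts.

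*Hmox1*, haem oxygenase 1, which frees iron from haem, was at 171 to 337 CPM at 1 dpi, 114 to 154 CPM at 2 dpi and 96.0 to 135 CPM at 3 dpi. It then stood at 64.7 to 73.8 CPM at 4 dpi, 41.9 CPM at 5 dpi and 24.8 to 57.4 CPM at 6 dpi. It fell by 2.61 ± 0.28 on the log2 scale from 1 to 6 dpi (edgeR adjusted p = 8.3e-06) and by 1.45 ± 0.20 from 1 and 2 dpi to 3 to 5 dpi (edgeR adjusted p = 8.8e-05). No 6 dpi library reached the lowest of 1 to 4 dpi. The erythroid sum was 27.5 to 118 CPM at 1 dpi, 19.5 to 182 CPM at 2 dpi, 2.13 to 30.2 CPM at 3 dpi, 272 to 2687 CPM at 4 dpi, 26.7 CPM at 5 dpi and 55.8 to 506 CPM at 6 dpi, and its part in the *Hmox1* counts was not tested.

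Among the transporters, *Slc39a14*, a carrier of iron not bound to transferrin, stood at 94.1 to 106 CPM at 1 dpi, 57.9 to 105 CPM at 2 dpi, 91.8 to 151 CPM at 3 dpi, 31.1 to 104 CPM at 4 dpi, 57.4 CPM at 5 dpi and 23.5 to 47.8 CPM at 6 dpi. The lowest 4 dpi library, replicate 3, lay within the range of 6 dpi. It was higher at 3 to 5 than at 6 dpi by 1.24 ± 0.35 (edgeR adjusted p = 0.029) and lower at 6 than at 1 dpi (-1.49 ± 0.39, edgeR adjusted p = 0.018). The mitochondrial iron importer *Slc25a37* was also lower at 6 than at 1 dpi (-1.58 ± 0.39, edgeR adjusted p = 0.012), from 13.1 to 19.8 CPM down to 2.21 to 8.87 CPM. *Ncoa4*, the receptor that carries ferritin to its breakdown, was lower at 6 than at 1 dpi by a log2 fold change of -1.19 ± 0.37 (edgeR adjusted p = 0.041). Its 6 dpi libraries ran from 10.6 to 40.0 CPM, under the 44.3 to 58.2 CPM of 1 dpi.

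*Hp*, haptoglobin, which binds free haemoglobin and also stands in the acute-phase list, rose to 3 to 5 dpi from 1 and 2 dpi by 2.10 ± 0.44 (edgeR adjusted p = 0.0043). It was at 11.6 to 17.3 CPM at 1 dpi, 20.2 to 28.9 CPM at 2 dpi and 19.0 to 85.3 CPM at 3 dpi. Later it was at 34.7 to 110 CPM at 4 dpi, 114 CPM at 5 dpi and 5.63 to 60.7 CPM at 6 dpi. The ferric reductase *Frrs1* rose in the same contrast by 1.14 ± 0.32 (edgeR adjusted p = 0.035). Its levels were 3.45 to 8.90 CPM at 1 dpi, 2.97 to 6.71 CPM at 2 dpi, 8.43 to 14.6 CPM at 3 dpi and 7.56 to 14.4 CPM at 4 dpi. *Pcbp1*, which delivers iron to ferritin, was higher at 3 to 5 than at 6 dpi by 1.19 ± 0.29 (edgeR adjusted p = 0.013). It was at 246 to 783 CPM at 3 dpi, 288 to 409 CPM at 4 dpi, 603 CPM at 5 dpi and 117 to 286 CPM at 6 dpi. The 246 CPM of 3 dpi replicate 2 lay within the range of 6 dpi.

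*Neo1*, neogenin, a receptor of hemojuvelin, was at 11.3 to 13.7 CPM at 1 dpi, 8.71 to 18.1 CPM at 3 dpi, 20.6 to 40.1 CPM at 4 dpi and 25.3 to 38.2 CPM at 6 dpi. It rose by 1.08 ± 0.23 from 3 to 4 dpi (edgeR adjusted p = 0.013), and the libraries of 4 dpi lay above those of 3 dpi. The rise from 1 to 6 dpi was 1.48 ± 0.25 (edgeR adjusted p = 0.00066), and that from 1 and 2 to 3 to 5 dpi 1.07 ± 0.17 (edgeR adjusted p = 0.00044). *Ireb2*, iron regulatory protein 2, was higher at 4 than at 3 dpi by 1.19 ± 0.30 (edgeR adjusted p = 0.039). It was at 24.7 to 29.7 CPM at 2 dpi, 9.56 to 18.3 CPM at 3 dpi, 17.9 to 41.3 CPM at 4 dpi and 6.06 to 20.9 CPM at 6 dpi. *Cpox*, of haem synthesis, was lower at 4 dpi (-1.19 ± 0.29, edgeR adjusted p = 0.036). Its levels were 22.5 to 23.0 CPM at 2 dpi, 28.4 to 57.0 CPM at 3 dpi and 15.3 to 19.4 CPM at 4 dpi. In 4 against 3 dpi the *Xist* pattern and the mitochondrial share change with the day.

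**Figure D5:**
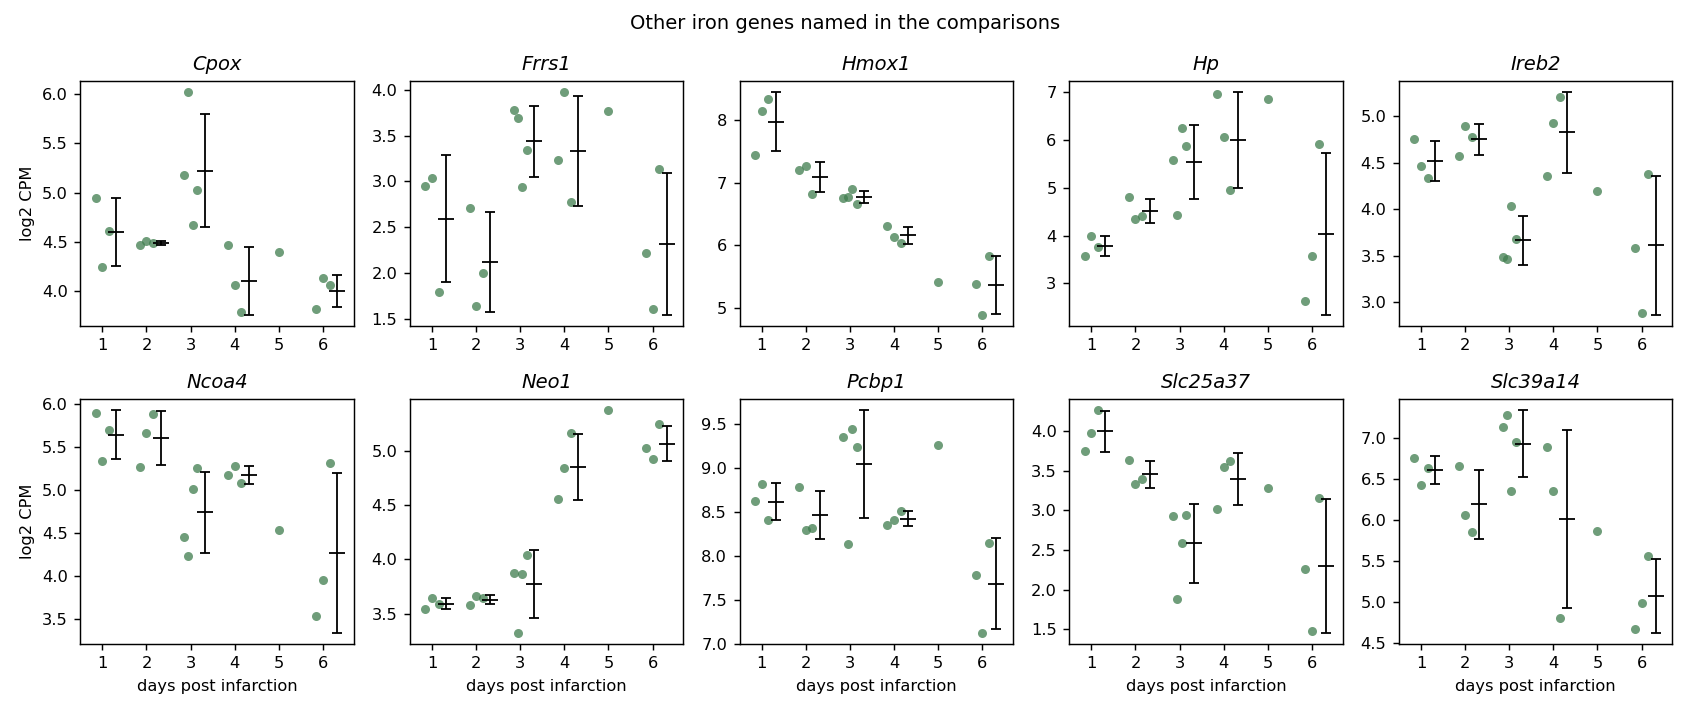
Levels of the 10 other iron genes named in the contrasts, in log2 CPM on the vertical axis against days post infarction, with 1 point per library and the mean ± SD of a day to the right of its points. *Hmox1* steps down from 1 dpi to 6 dpi, *Neo1* is higher from 4 dpi on, and *Hp* is highest between 3 and 5 dpi.

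For each member, the 3 genes with the most similar log2 levels over the 17 libraries were looked up among 8919 genes with a mean of at least 100 counts, as a description of points that share day, depth and preparation. *Steap1* was most like *Ccz1* (Pearson r of 0.94), *Eef1g* (0.93) and *Zwint* (0.93). *Steap2* was most like *Adam12* (0.89), *Il4ra* (0.88) and *Ufm1* (0.88), and *Steap3* like *Orai1* (0.91), *Tmem107* (0.85) and *Mmp2* (0.84). For *Steap4* the nearest were *Hspa14* (0.80), *AK157302* (0.79) and *Mtmr12* (0.78). *Tfrc* had *Pdzd8* (0.90), *Ereg* (0.88) and *Cacul1* (0.88), and *Slc40a1* had *Pnmal2* (0.79), *Rnf169* (0.78) and *Cytl1* (0.78), both from few counts. *Fth1* went with *Gm16536* (0.95), *Ogg1* (0.91) and *Pgf* (0.89), and *Ftl1*, beside its copy, with *2210016L21Rik* (0.93). *Cp* was nearest to *Irak3* (0.91), *Hipk1* (0.91) and *Man1a* (0.89). *Lcn2* was nearest to *Gm12840* (0.92), *Alpl* (0.89) and *Sod2* (0.84). The likeness of *Steap1* includes the 6 dpi levels by which it was selected. A list of proliferation genes, 15 of them tested, had 12 higher and 0 lower at 3 to 5 dpi than at 1 and 2 dpi, where 5.25% and 2.24% of all genes were called, and 12 higher and 0 lower against 6 dpi, beside 5.29% and 6.25%. It had 5 higher and 0 lower for 2 against 1 dpi, beside 0.157% and 0.0214%. The counts were 7 and 0 for 3 against 2 dpi (1.82% and 1.12%). They were 0 and 1 for 4 against 3 dpi (1.63% and 1.08%) and 0 and 2 for 6 against 4 dpi (0.235% and 0.278%). At 6 against 1 dpi 8 were higher and 1 lower (6.91% and 5.21%). *Steap1* had a log2 fold change of -2.44 there, without a test.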

How the data were processed

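Col1a1-GFP+ CFs from infarcted mouse hearts were profiled by bulk MARS-seq, which primes poly-A RNA with poly-dT and amplifies it by in vitro transcription, so that counts come mainly from 3′ ends and depend on how well those ends are annotated. The authors used bcl2fastq (1.2.4) to demultiplex, STAR to align to mm10 and featureCounts to count reads per gene. The deposited values are raw counts per gene, whole numbers without normalization, in 17 columns. Collapsing of PCR copies is not named in the sources used here, so floors cover counting error only. Of 31053 genes, 30934 received a symbol.

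Members and gene lists were chosen with earlier results of these data known. The main test was edgeR (4.0.16) in R (4.3.3), quasi-likelihood on TMM-normalized counts with day as a factor over 17 libraries. Genes needed at least 10 counts in at least 3 libraries, and p-values were adjusted over all 14030. The SE is the log2 fold change divided by the square root of F. Log2 CPM used a prior count of 2. The single 5 dpi library enters the window mean and was not tested alone. Its title gives replicate 3 and its description 1, and the title was used. DESeq2 (1.42.0), other filters and scalings, a replicate block, fits on the days compared, left-out days and each library left out were the alternatives, and scripts were tested on simulated data. Leaving out libraries with macrophage markers or haemoglobin counts was added after the data were seen. From the list of other iron genes, those named were called, averaged at least 100 counts and were among the 4 with the largest change in their direction. Positions and hairpins came from GENCODE vM21 (GRCm38), which is not the annotation release behind the counts, and promoters from RefSeq. Shared sequence was checked in runs of 60 bases. One gene of the search for similar levels is not reported here. Ratios within a library and their text were added after values were seen. Tables were read with pandas (2.3.3) in Python (3.11.15) and figures drawn with matplotlib (3.10.9).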

Additional observations from a re-analysis of the deposited data

Results flagged for a closer look

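Only 3 dpi had more than 3 libraries, so only there could a library be held against the rest of its day with Dixon's ratio of gap to range, set against its 95% critical value. Chance flags about 1 in 20 groups, and 11 measures were examined. One was past the critical value: *Fth1* in 3 dpi replicate 2, at 12.88 log2 CPM with a ratio of 0.917. Its CPM was 6637 against 2287 to 2463 in the other 3 libraries. The same library was the highest of its day for *Ftl1* and had the largest *Fth1* to *Ftl1* ratio of all 17 libraries, 1.209.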

How the results depend on the processing

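No fold change of a member reversed among called values. Of 1756 recomputed fold changes of members, 34 lost and 30 gained a call, and 2 moved. Of 120 recomputed levels by day, 7 moved by more than 1 SD. Without the haemoglobin-rich libraries *Cp* was higher at 3 to 5 than at 6 dpi by 0.90 (edgeR adjusted p = 0.034), and *Lcn2* was lower at 3 than at 2 dpi by a log2 fold change of -1.74 (edgeR adjusted p = 0.040). The number of members called changed as follows, and the cause was not tested. With every gene with at least 1 count it was 1 for 2 against 1 dpi, 3 for 3 against 2 dpi, 2 for 4 against 3 dpi, 1 for 6 against 4 dpi and 6 for the whole time course. The 3 include *Steap1*, at 0.97, which is also among the 30 gained calls. Its 3 dpi libraries entered its selection, so this value is a description. With DESeq2 the number was 1 for 6 against 4 dpi, 3 for 6 against 1 dpi, 3 for 3 to 5 dpi against 1 and 2 dpi and 6 for the whole time course. Fitting only the days compared gave 1 for 2 against 1 dpi, 2 for 3 against 2 dpi and 1 for 3 to 5 dpi against 6 dpi, and the last was also 1 without the 5 dpi library and 1 without the 3 dpi libraries. Without the libraries with macrophage markers 3 against 2 dpi called 0, and without those with the most haemoglobin 2, while 6 against 4 dpi then called 1. Leaving out 1 library gave 0 to 0 members for 2 against 1 dpi, 0 to 2 for 3 against 2 dpi, 0 to 0 for 4 against 3 dpi, 0 to 3 for 6 against 4 dpi and 1 to 3 for 6 against 1 dpi. It gave 1 to 4 for 3 to 5 dpi against 1 and 2 dpi, 0 to 4 for 3 to 5 dpi against 6 dpi and 2 to 5 for the whole time course. Genes called in all, with 25, 412, 380, 72, 1619 and 2099 in the contrasts that follow, were by DESeq2 104 for 2 against 1, 1033 for 3 against 2, 857 for 4 against 3, 759 for 6 against 4 dpi and 3757 over the course. With at least 1 count they were 153, 980, 866, 882 and 3729. On only the days compared they were 63, 252, 125, 14 and, for 3 to 5 against 6 dpi, 926, and without 3 dpi the last was 779. A minimum of 10 counts in all libraries gave 10 for 2 against 1 and 140 for 6 against 4 dpi. Without the macrophage-marked libraries there were 202 for 4 against 3 and 29 for 6 against 4 dpi, and without the haemoglobin-rich ones 26 and 289.

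Same-numbered libraries of different days did not deviate together (mean r of 0.011 over 30 pairs), so the replicate block rests on a shared number alone. With that block 3 against 2 dpi called 0 members and 174 genes, 4 against 3 dpi 243 genes and 6 against 4 dpi 28 genes. The call of *Ftl1* for 3 to 5 dpi against 6 dpi was also lost with the block (edgeR adjusted p = 0.077).

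*Tfrc* and *Slc40a1* had few counts, with medians of 33 and 46 counts per library, and 1 library of each was at or under the floor of 3 counts. The SE of their contrasts was 0.55 to 0.98 on the log2 scale, and how much of it comes from depth was not tested. The 5 dpi value of every gene is 1 library.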
